A study of Mus musculus with 2 samples.

Results

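Glycine receptors and the cation-chloride cotransporters that set the chloride gradient were followed through the cells of the ventral parafacial region of 10-day-old mice. The 8 member genes were chosen by name from the 28692 genes that the lists of both libraries hold, and their UMIs, the counted molecules, were summed over classes of cells gated by marker genes. A cell entered a neuron class when at least 2 of 4 neuronal genes (*Snap25*, *Tubb3*, *Elavl2* and *Syp*) were above the level that free RNA would give, and the class was then set by *Nmb*, *Chat*, *Slc32a1* or *Slc17a6*. Cells with fewer than 2 of the 4 neuronal genes above that level were placed by *Aqp4*, *Pdgfra*, *Mog*, *C1qa* or *Cldn5*. A cell above it for several of these markers entered no class. No member was used in a gate, but the levels still depend on which cells a gate lets in. The 9 classes and the neurons in no class held 1053 gated neurons and 7044 gated non-neuronal cells of the 11897 cells that passed the filters. Neurons in no class had none of the neuronal class markers, or a mix of them that no class allows.

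The cells came from 2 libraries of C57BL6/J mice, with no transgene named for either. Each library pooled 8 mice, 4 male and 4 female. The mice of the untreated library (batch 1) received no agent, and those of the 4OH-tamoxifen library (batch 2) received 0.2 mg 4OH-tamoxifen per day for 3 days. There was 1 library per condition, so treatment, batch and pool cannot be told apart, no test between them was possible, and values are given for each library in turn, untreated first, unless said to be over both.

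The libraries held 18496942 UMIs (untreated) and 34704167 UMIs (4OH-tamoxifen), with a median of 3628 and 2411 UMIs in the 3339 and 8558 cells kept, and they shared 40 cell barcodes. The neuron classes held 35 and 61 *Nmb* neurons, 21 and 76 *Slc17a6* neurons, 84 and 270 *Slc32a1* neurons and 19 and 82 *Chat* neurons, in the order untreated and 4OH-tamoxifen that is kept below. Checked against 4 markers each that no gate used, 8 classes had at least 3 detected. These were the retrotrapezoid-like *Nmb* neurons, the inhibitory *Slc32a1* neurons, the cholinergic-like *Chat* neurons, and the astrocyte-like (*Aqp4*), oligodendrocyte precursor-like (*Pdgfra*), oligodendrocyte-like (*Mog*), microglia-like (*C1qa*) and endothelial-like (*Cldn5*) cells. The *Slc17a6* neurons, glutamatergic by their gate, included cells with *Th*, the gene of the first enzyme of catecholamine synthesis. *Th* stood there at 289 and 112 CPM (UMIs per 1000000 UMIs of the class). *Pdgfra* cells also held 450 and 129 CPM of the fibroblast gene *Col1a1*, and *Cldn5* cells 114 and 177 CPM of the pericyte gene *Pdgfrb*. The part of these other cells in the values of both classes was not tested.

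Glycine receptors are chloride channels opened by glycine, assembled from alpha subunits that bind the transmitter and a beta subunit that gephyrin holds at inhibitory synapses. Whether their opening inhibits a cell depends on its internal chloride, which the sodium-potassium-chloride importer NKCC1 (*Slc12a2*) raises and the potassium-chloride exporter KCC2 (*Slc12a5*) lowers. In many rodent neurons the exporter rises and the importer falls in early postnatal life. In the brainstem, glycine is the transmitter of many inhibitory neurons, including those near the retrotrapezoid chemoreceptors that drive breathing.

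Windows of sequence just upstream of the transcription start are shown for 3 of the members that were at least 2-fold higher in neurons, *Slc12a5*, *Glrb* and *Glra2*, since RefSeq places the starts of their transcripts there. They are RefSeq sequences of build GRCm38.p6, printed 5′ to 3′ on the strand of the gene. *Slc12a5* (ENSMUSG00000017740) lies at chr2:164960802-164999731 on the plus strand and has a pair of RefSeq starts. The *Slc12a5* windows are chr2:164960596-164960801 and chr2:164967738-164967982, of which the first lies upstream of the gene and the second inside it. *Glrb* (ENSMUSG00000028020) lies at chr3:80843599-80913660 on the minus strand, with the window chr3:80913661-80913910. *Glra2* (ENSMUSG00000018589) lies at chrX:165129017-165327393 on the minus strand, with the window chrX:165327394-165327643. The letters CACGTG of the E-box, GGGCGG of the Sp1 motif, TATAAA near many starts and GCGTGGGCG of the Egr motif were searched on both strands, and matches are in capitals. GGGCGG and GCGTGGGCG share the letters GGGCG.
Slc12a5 first start: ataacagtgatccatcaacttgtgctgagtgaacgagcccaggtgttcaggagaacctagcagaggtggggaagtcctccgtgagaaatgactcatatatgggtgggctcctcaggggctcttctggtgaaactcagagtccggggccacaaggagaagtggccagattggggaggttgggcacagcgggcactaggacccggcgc
Slc12a5 second start: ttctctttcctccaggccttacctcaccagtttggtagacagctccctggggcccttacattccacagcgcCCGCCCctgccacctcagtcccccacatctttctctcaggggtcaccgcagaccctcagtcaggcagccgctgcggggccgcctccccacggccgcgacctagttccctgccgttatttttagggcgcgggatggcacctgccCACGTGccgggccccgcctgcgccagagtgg
Glrb: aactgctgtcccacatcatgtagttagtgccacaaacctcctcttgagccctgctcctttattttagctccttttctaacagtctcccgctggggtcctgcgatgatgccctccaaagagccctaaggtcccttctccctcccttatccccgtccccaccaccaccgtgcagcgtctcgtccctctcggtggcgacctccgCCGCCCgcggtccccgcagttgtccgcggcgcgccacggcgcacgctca
Glra2: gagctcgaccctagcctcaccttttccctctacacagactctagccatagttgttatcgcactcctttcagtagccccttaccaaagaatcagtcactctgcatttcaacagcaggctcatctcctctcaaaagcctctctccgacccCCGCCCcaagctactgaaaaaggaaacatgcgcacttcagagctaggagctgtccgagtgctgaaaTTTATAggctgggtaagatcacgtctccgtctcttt
The printed 206 bases upstream of the first *Slc12a5* start held none of the 4 motifs, and the 245 bases of the second held CACGTG and GGGCGG, the latter read as CCGCCC. The *Glrb* window held GGGCGG and the *Glra2* window GGGCGG and TATAAA, all on the opposite strand. Of the 32851 upstream windows of 250 bases in the RefSeq table, 6.02% held CACGTG, 32.7% GGGCGG, 12.4% TATAAA and 0.536% GCGTGGGCG, and the *Slc12a5* windows, being shorter, had fewer places for a match. A match is a description of the letters only, and UMIs counted from the 3′ ends of messages do not show which start was used.

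Both measured alpha subunits, the beta subunit and the exporter KCC2 were higher in neurons, and the importer NKCC1 was higher in oligodendrocyte-like cells. Of 7 members with at least 20 UMIs in the comparison, 4 (*Glra1*, *Glra2*, *Glrb* and *Slc12a5*) were at least 2-fold higher in all gated neurons than in all gated non-neuronal cells in both libraries, against 23.1% of all genes. *Slc12a2* was at least 2-fold lower in both, as were 17.6% of all genes, and *Gphn* lay at the 2-fold line. The minimum counts the UMIs of both sides together, so a gene can enter through the side where it is high. *Slc12a7*, also below the 2-fold line, entered in this way, with 0 and 2 UMIs in neurons, and nothing is read from it. The median log2 ratio of the 7 members was 2.45 and 2.87, beside 0.14 and 0.18 over all genes. This median still counts *Slc12a7*, so it is given as a description only. *Glra3* had too few UMIs to enter. Neurons in no class (68 and 337 cells) count among all gated neurons.

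**Figure D1:**
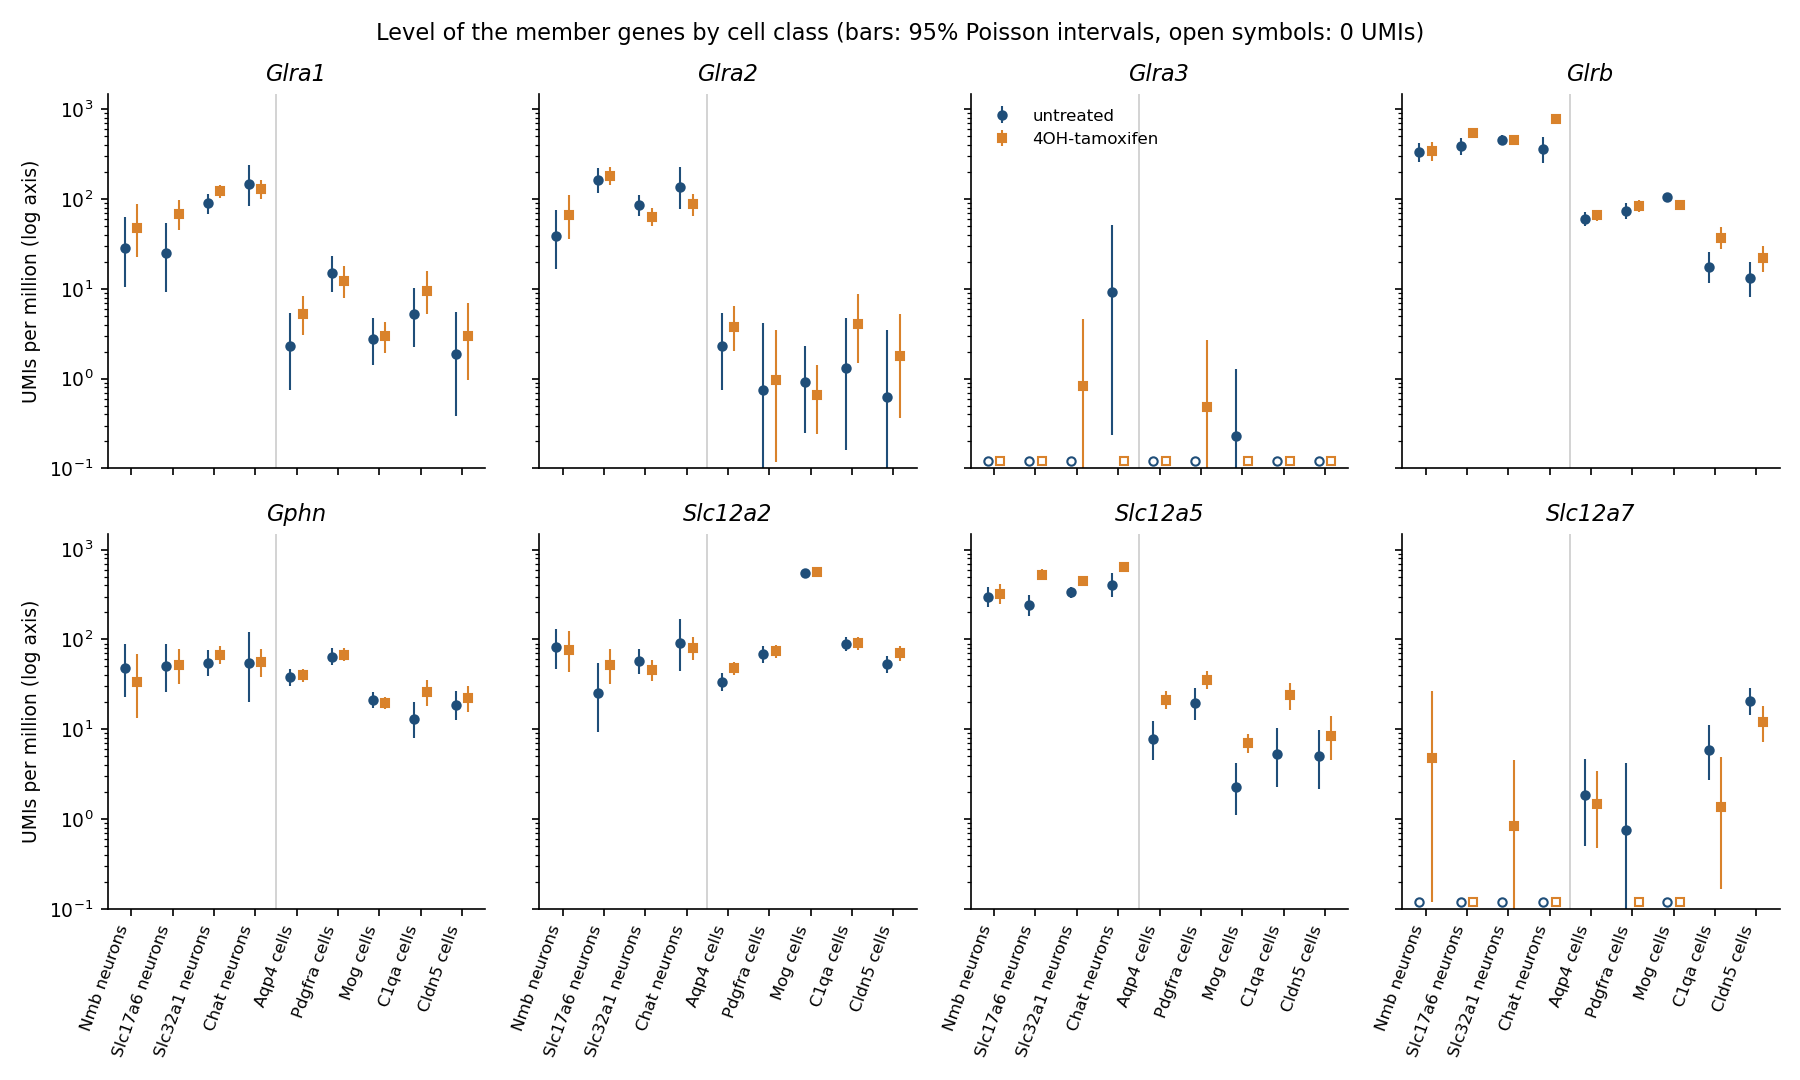
UMIs per 1000000 UMIs (CPM, log axis) of the 8 members in the 9 classes, 1 point per library with its exact 95% Poisson interval; open symbols at the foot mark classes with 0 UMIs. *Glra1*, *Glra2*, *Glrb* and *Slc12a5* stood higher in the 4 neuron classes than in the 5 others, and *Slc12a2* stood highest in *Mog* cells at 549 and 558 CPM.

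*Glra1* (ENSMUSG00000000263, GRCm38 chr11:55514238-55608198, minus strand) encodes the alpha subunit of most adult glycine receptors. It stood at 89.9 CPM (95% interval 68.9 to 115) and 122 CPM (103 to 144) in *Slc32a1* neurons, and at 147 CPM (84.1 to 239) and 129 CPM (101 to 162) in *Chat* neurons. It was lower in *Slc17a6* neurons, at 25.2 CPM (9.23 to 54.8) and 67.7 CPM (45.4 to 97.3), and in *Nmb* neurons, at 28.7 CPM (10.5 to 62.6) and 47.5 CPM (22.8 to 87.4). The 2 upper classes could not be ordered, since *Chat* over *Slc32a1* neurons was 1.64-fold and 1.06-fold with intervals that include 1, and neither could the 2 lower ones. The 2 lower classes were below the 2 upper ones in each library. Intervals here are exact and cover counting error only, since UMIs of 1 pool say nothing of the spread between mice.

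In all gated neurons *Glra1* stood at 70.6 CPM and 96.3 CPM, 16.2-fold (11.4 to 23.3) and 19.3-fold (15.2 to 24.6) above non-neuronal cells. At least 1 UMI was found in 32.2% and 29.8% of neurons, at a median of 5362 and 3520.5 UMIs per cell. In *C1qa* cells, which served as the background for shares, it was found in 2.26% and 2.07%, at a median of 4094 and 2277 UMIs. Thinned to 2000 UMIs per cell, which left out shallower cells, the shares were 12.7% and 19.6% of neurons. Among non-neuronal classes *Pdgfra* cells had the highest *Glra1*, at 15.0 CPM (9.17 to 23.2) and 12.1 CPM (7.82 to 17.8).

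*Glra2* encodes the alpha subunit that prevails in immature neurons of many regions. It was highest in *Slc17a6* neurons, at 164 CPM (116 to 224) and 182 CPM (144 to 227). It followed in *Chat* neurons, at 138 CPM (77.2 to 227) and 87.3 CPM (64.8 to 115), and in *Slc32a1* neurons, at 85.5 CPM (65.1 to 110) and 63.6 CPM (50.2 to 79.4). In *Nmb* neurons it stood at 38.3 CPM (16.5 to 75.5) and 66.6 CPM (36.4 to 112). In the untreated library the intervals of neighbouring classes in this order overlapped, and in the 4OH-tamoxifen library those of *Chat*, *Slc32a1* and *Nmb* neurons overlapped. Non-neuronal classes held between 0.628 and 4.07 CPM, and the neurons were 77.6-fold (43.9 to 149) and 49.6-fold (34.0 to 74.7) above them together. When each cell's own CPM was averaged, the log2 ratio over both libraries was 5.22, against 5.85 from the summed UMIs. *Glra2* was found in 26.4% and 20.2% of neurons and in 0.565% and 1.03% of *C1qa* cells.

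The alpha subunits ran in opposite directions between *Slc17a6* and *Slc32a1* neurons, while *Nmb* neurons held 38.3 and 66.6 CPM of *Glra2* and so did not lie above *Slc32a1* neurons beyond counting error. *Glra2* was 1.91-fold (1.24 to 2.91) and 2.87-fold (2.06 to 3.98) higher in *Slc17a6* than in *Slc32a1* neurons, and *Glra1* was 0.280-fold (0.0989 to 0.644) and 0.554-fold (0.359 to 0.830) of the level there. Neither passed 2-fold in both libraries. Of 6 members tested, 0 were at least 2-fold higher in both libraries, against 2.52% of all genes, and 0 were at least 2-fold lower, against 2.35%. The ratio of *Glra1* to *Glra2* UMIs was 0.154 (0.053 to 0.366) and 0.372 (0.234 to 0.576) in *Slc17a6* neurons and 1.05 (0.724 to 1.53) and 1.92 (1.45 to 2.57) in *Slc32a1* neurons. UMIs are counted once per message from its 3′ end and are not divided by length, and capture can differ between genes, so a ratio of 2 genes is compared between classes and not read as a ratio of molecules.

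Within the *Slc17a6* neurons, *Glra2* was highest in the *Th* cells. The 5 and 12 cells with a *Th* UMI held 239 CPM (160 to 344) and 411 CPM (291 to 564) of *Glra2*, and the 16 and 64 cells without held 85.2 CPM and 119 CPM. *Glra1* stood at 24.8 and 10.8 CPM in cells with *Th* and at 25.6 and 83.4 CPM in cells without. Cells with a *Th* UMI were also deeper, with a median of 27592 and 8205.5 UMIs against 6714 and 4386.5 UMIs, and the part of depth was not tested. Without the *Th* cells, *Glra2* in *Slc17a6* neurons was close to its 85.5 CPM in the *Slc32a1* neurons of the untreated library and above their 63.6 CPM in the 4OH-tamoxifen library.

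**Figure D2:**
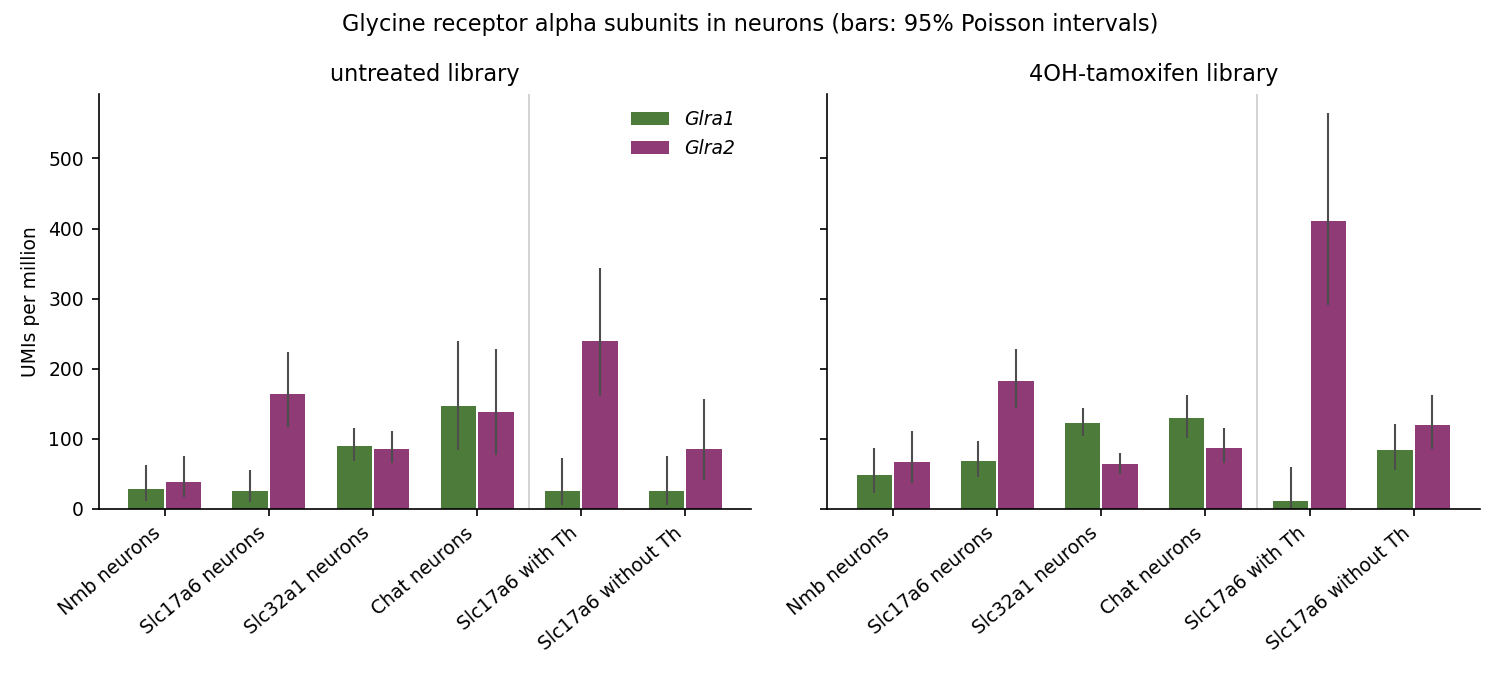
UMIs per 1000000 UMIs (CPM, linear axis from 0) of *Glra1* and *Glra2* in the 4 neuron classes and in *Slc17a6* neurons with and without a *Th* UMI, 1 bar per library with its exact 95% Poisson interval. The *Glra2* bars are highest in *Slc17a6* neurons with *Th*, at 239 and 411 CPM, where *Glra1* stood at 24.8 and 10.8 CPM.

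*Glra3* (ENSMUSG00000038257, GRCm38 chr8:55940460-56130070, plus strand), an alpha subunit known from spinal dorsal horn and retina, was close to absent from the counts. It had 1 and 2 UMIs in all gated neurons and 1 and 1 in all gated non-neuronal cells. *Nmb* neurons had 0 UMIs in both libraries, which with 3 counts as the limit allows up to 14.4 and 14.3 CPM. A low level in these neurons was therefore not detectable at this depth.

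*Glrb*, the beta subunit that forms receptors with each alpha subunit and binds gephyrin, was found in most neurons at full depth. It stood at 458 CPM (409 to 511) and 451 CPM (414 to 490) in *Slc32a1* neurons and at 386 CPM (311 to 473) and 551 CPM (483 to 626) in *Slc17a6* neurons. *Nmb* neurons held 331 CPM (257 to 418) and 342 CPM (268 to 431). *Chat* neurons differed between the libraries, at 359 CPM (255 to 490) and 779 CPM (708 to 855). The order of the classes was not the same in both libraries, apart from *Nmb* neurons, which were lowest in each. *Nmb* over *Slc32a1* neurons was 0.722-fold (0.548 to 0.939) and 0.759-fold (0.585 to 0.972).

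In all gated neurons *Glrb* stood at 370 CPM (340 to 402) and 521 CPM (497 to 545) and was found in 66.5% and 61.6% of cells, against 7.06% and 8.09% of *C1qa* cells. It was also present outside neurons, with 107 and 85.2 CPM in *Mog* cells, 74.3 and 84.6 CPM in *Pdgfra* cells and 60.1 and 65.7 CPM in *Aqp4* cells. All 3 were above the 17.7 and 37.3 CPM of *C1qa* cells and the 13.2 and 22.0 CPM of *Cldn5* cells. The neurons exceeded non-neuronal cells 5.47-fold (4.90 to 6.11) and 7.29-fold (6.79 to 7.83), the smallest excess of the receptor subunits that could be compared.

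*Gphn* (ENSMUSG00000047454, GRCm38 chr12:78226379-78684772, plus strand) encodes gephyrin, the scaffold of glycine and GABA-A receptor synapses, which also serves molybdenum cofactor synthesis in other cells. It varied least between classes, with 33.3 to 67.7 CPM in the 4 neuron classes. *Pdgfra* cells were as high, at 64.6 CPM (51.6 to 79.7) and 67.7 CPM (56.9 to 79.9), and *Aqp4* cells held 38.1 and 39.8 CPM. *Mog* cells held 21.2 and 19.6 CPM. Neurons exceeded non-neuronal cells 2.01-fold (1.57 to 2.56) and 1.97-fold (1.67 to 2.31). *Gphn* spans small genes on its own strand (Gm48225, Gm48230 and Gm48231), so part of its count is uncertain.

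*Slc12a5*, the exporter KCC2, was present in every neuron class. It stood at 405 CPM (294 to 543) and 641 CPM (577 to 710) in *Chat* neurons and at 335 CPM (293 to 381) and 453 CPM (416 to 493) in *Slc32a1* neurons. *Slc17a6* neurons held 243 CPM (185 to 314) and 528 CPM (461 to 601), and *Nmb* neurons 297 CPM (228 to 381) and 323 CPM (251 to 410). *Chat* neurons were highest in each library, with an interval that overlapped those of the other 3 in the untreated library and that of *Slc17a6* neurons in the 4OH-tamoxifen library. The other 3 classes took a different order in each. Only in the 4OH-tamoxifen library did *Nmb* neurons fall below *Slc32a1* neurons beyond counting error, at 0.713-fold (0.546 to 0.919).

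*Slc12a5* was found in 65.2% and 64.4% of neurons, against 2.26% and 5.85% of *C1qa* cells, and in 37.1% and 53.7% of neurons thinned to 2000 UMIs. Neurons exceeded non-neuronal cells 46.6-fold (36.1 to 60.9) and 33.1-fold (29.0 to 37.8). Outside neurons the highest level was in *Pdgfra* cells, at 19.5 and 35.8 CPM, and the lowest in *Mog* cells, at 2.28 and 7.01 CPM. When each cell's own CPM was averaged, the log2 ratio of neurons to non-neuronal cells fell from 5.22 over both libraries to 4.47.

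The importer NKCC1, *Slc12a2* (ENSMUSG00000024597), had its highest level in oligodendrocyte-like cells. *Mog* cells held 549 CPM (527 to 572) and 558 CPM (543 to 574), and 89.7% and 88.9% of them had a UMI. It was the only 1 of 7 members at least 2-fold higher in *Mog* cells than in the other gated cells in both libraries, against 6.89% of all genes. The precursor-like *Pdgfra* cells held 68.3 and 73.5 CPM, so *Mog* cells were 8.04-fold (6.52 to 10.0) and 7.60-fold (6.46 to 8.98) higher. *C1qa* cells held 89.7 and 90.2 CPM, *Cldn5* cells 52.7 and 70.2 CPM and *Aqp4* cells 33.9 and 47.7 CPM.

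In *Slc12a2*, neurons did not stand above *C1qa*, *Pdgfra* or *Cldn5* cells beyond counting error in either library, but they stood above *Aqp4* cells in both. All gated neurons held 61.5 CPM (49.7 to 75.2) and 63.6 CPM (55.7 to 72.4), which was 0.243-fold and 0.20-fold of non-neuronal cells, and *Aqp4* cells held 33.9 CPM (26.6 to 42.6) and 47.7 CPM (40.7 to 55.6). A UMI was found in 33.0% and 22.2% of neurons and in 29.4% and 17.6% of *C1qa* cells, and after thinning in 12.2% and 10.2% of neurons and in 15.5% and 16.8% of *C1qa* cells. In *Aqp4* cells the thinned share was 5.05% (3.5 to 7.02) and 7.61% (5.92 to 9.60), beside 12.2% (8.13 to 17.4) and 10.2% (7.97 to 12.7) in neurons. At matched depth the neuronal share thus lay at or below that of *C1qa* cells and above that of *Aqp4* cells, with overlapping intervals for the latter in the 4OH-tamoxifen library. Which of these classes gives the background for neurons was not tested. Among neuron classes, *Nmb* neurons held 81.4 CPM (47.4 to 130) and 76.1 CPM (43.5 to 124) and *Chat* neurons 91.9 CPM (44.1 to 169) and 80.3 CPM (58.8 to 107). *Slc32a1* neurons held 58.0 CPM and 45.4 CPM, and *Slc17a6* neurons 25.2 CPM (9.23 to 54.8) and 51.4 CPM (32.2 to 77.8). The intervals of neighbouring classes overlapped.

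Oligodendrocyte transcripts were found across the data, and their part in the neuronal *Slc12a2* was not tested. *Mbp*, the gene of myelin basic protein, stood at 6026 and 5868 CPM in neurons, against 19277 and 19707 CPM in *Mog* cells and 9306 and 13835 CPM in *C1qa* cells, and it was found in 100% of the neurons. It was thus lower in neurons than in *Mog* or *C1qa* cells in both libraries. When each cell's own CPM was averaged, the log2 ratio of *Slc12a2* in neurons to non-neuronal cells over both libraries was -1.47, against -2.22 from the summed UMIs.

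**Figure D3:**
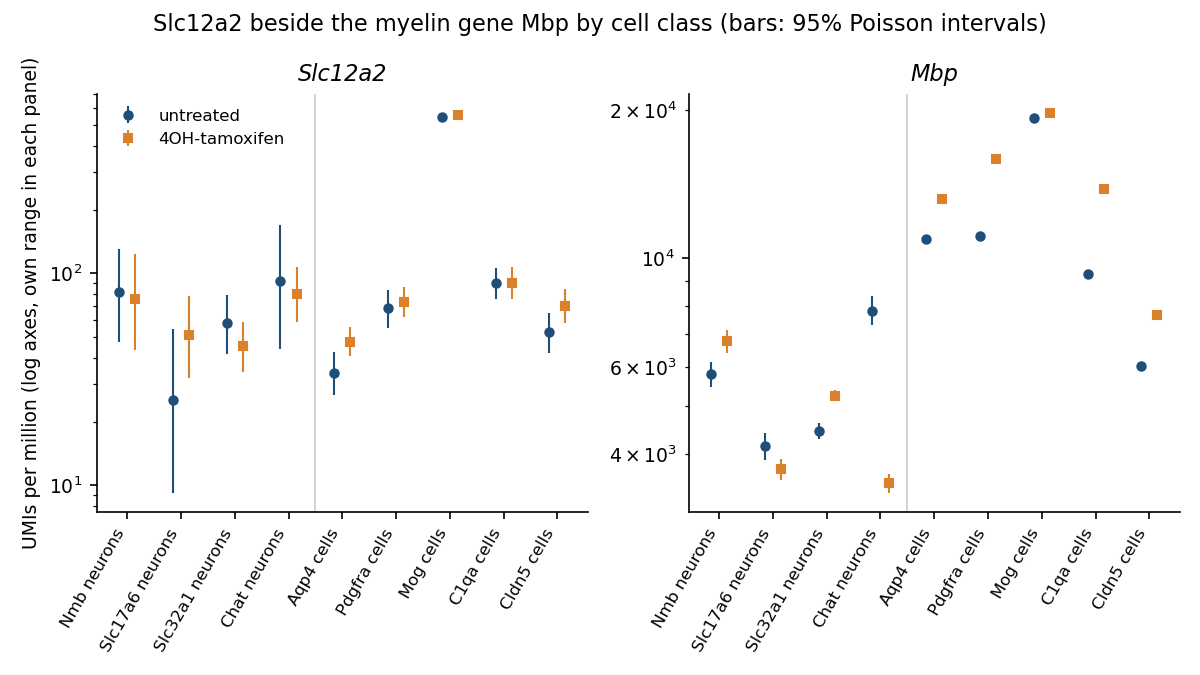
UMIs per 1000000 UMIs (CPM, log axes) of *Slc12a2* and *Mbp* in the 9 classes, 1 point per library with its exact 95% Poisson interval. Both genes were highest in *Mog* cells, and *Mbp* stood at 3485 CPM or more in every class.

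Set against each other, the exporter exceeded the importer in every neuron class and fell below it in every non-neuronal class. The ratio of *Slc12a5* to *Slc12a2* UMIs in all gated neurons was 4.74 (3.79 to 5.99) and 7.60 (6.62 to 8.75), from 446 against 94 and 1747 against 230 UMIs. It was 9.67 (4.18 to 27.4) and 10.3 (6.62 to 16.7) in *Slc17a6* neurons and 5.78 (4.11 to 8.29) and 9.98 (7.56 to 13.4) in *Slc32a1* neurons. *Chat* neurons gave 4.4 (2.2 to 9.81) and 7.98 (5.86 to 11.1), and *Nmb* neurons 3.65 (2.11 to 6.65) and 4.25 (2.44 to 7.85). The *Nmb* neurons were lowest and the *Slc17a6* neurons highest in each library, with intervals that overlapped within a library, but the top of this order changed with the setting. *Mbp* stood at 5801 and 6775 CPM in *Nmb*, 4452 and 5252 CPM in *Slc32a1* and 4146 and 3719 CPM in *Slc17a6* neurons. Over these classes it fell as the ratio rose, in both libraries. *Chat* neurons, at 7824 and 3485 CPM of *Mbp*, lay outside this order. The part of oligodendrocyte RNA in the order of the ratio was not tested.

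Outside neurons the ratio was 0.230 and 0.445 in *Aqp4* cells, 0.286 and 0.487 in *Pdgfra* cells, 0.058 and 0.263 in *C1qa* cells and 0.095 and 0.119 in *Cldn5* cells. *Mog* cells gave the lowest, at 0.004 and 0.013. As for the alpha subunits, the ratio compares classes and does not count molecules of the 2 transporters. On the log2 scale the ratio of all neurons was 2.76 over both libraries and 2.04 when 1 of the 4 neuronal genes was enough for the gate. In *Slc17a6* neurons of both libraries it was 3.34, and 2.57 with classes taken from clusters, which put it below *Slc32a1* (2.96) and *Chat* neurons (2.86). With at most 10% mitochondrial UMIs it was 2.88, below *Slc32a1* neurons at 3.20.

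**Figure D4:**
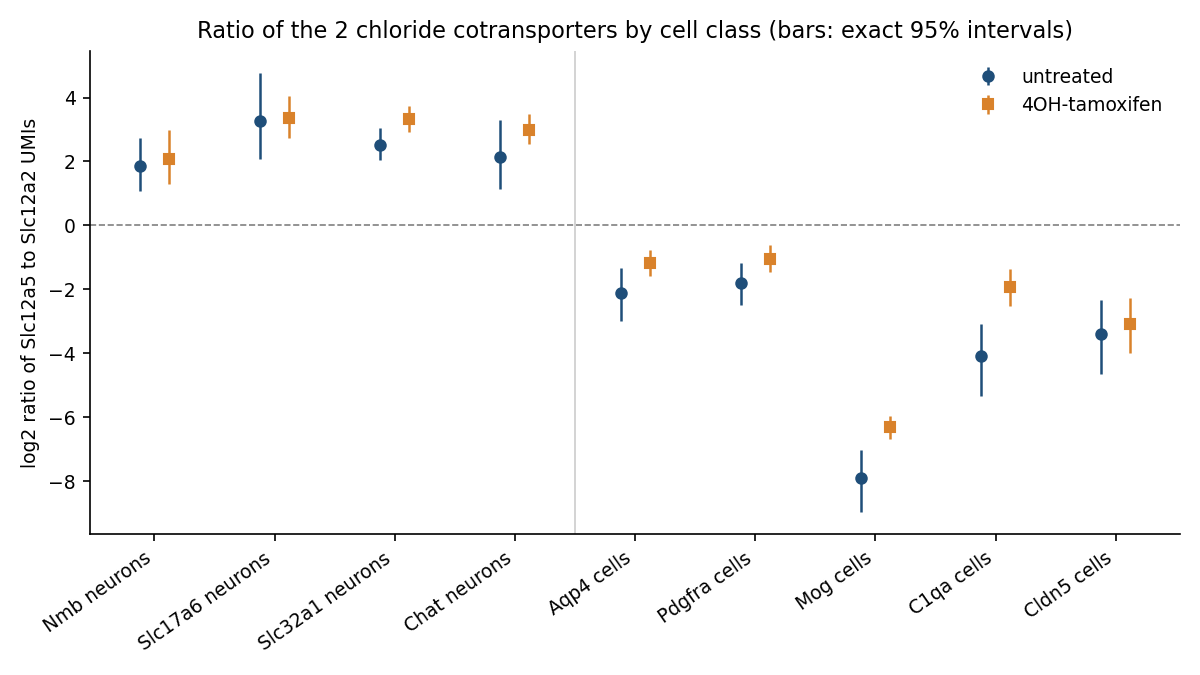
Log2 ratio of *Slc12a5* to *Slc12a2* UMIs in each class, 1 point per library with its exact conditional 95% interval; 0 marks equal UMIs. The 4 neuron classes lie above 0 and the 5 other classes below it in both libraries.

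Cell by cell, 58 and 137 neurons held UMIs of both cotransporters and 90 and 395 held *Slc12a5* without *Slc12a2*. A smaller number, 17 and 46, held *Slc12a2* without *Slc12a5*, and 62 and 248 held neither. Neurons were also divided by *Dcx* or *Sox11*, genes of immature neurons. The 108 and 287 neurons with a UMI of either gave a ratio of 4.86 (3.59 to 6.71) and 8.37 (6.73 to 10.5), and those without gave 4.6 (3.30 to 6.56) and 7.09 (5.93 to 8.53). The intervals overlapped in each library, and neurons with these genes were deeper, with a median of 6750.5 and 4169 UMIs against 4361 and 3221.

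Inhibitory neurons were divided by the glycine transporter *Slc6a5* (GlyT2), which marks glycine-releasing cells. *Slc12a5* stood at 356 and 507 CPM in *Slc32a1* neurons with *Slc6a5* and at 287 and 344 CPM in those without. *Glra2* went the other way, at 77.0 and 48.0 CPM with and 105 and 95.4 CPM without. For both genes the intervals of the 2 sets of cells overlapped in the untreated library and not in the 4OH-tamoxifen library. The ratio of *Slc12a5* to *Slc12a2* was 6.84 (4.48 to 10.9) and 10.6 (7.60 to 15.1) with *Slc6a5*, and 4.00 (2.24 to 7.59) and 8.56 (5.09 to 15.4) without, with overlapping intervals. Cells with *Slc6a5* were deeper, with a median of 9191 against 7238.5 UMIs in the untreated library and 4567 against 3704 UMIs in the 4OH-tamoxifen library.

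Inhibitory neurons with a UMI of the peptide gene *Sst*, which free RNA could also give, numbered 40 and 117. They held 106 CPM (74.5 to 147) and 150 CPM (120 to 187) of *Glra1*, and the *Slc32a1* neurons without *Sst* held 74.0 CPM (48.3 to 108) and 99.2 CPM (76.7 to 126). These intervals overlapped in both libraries, and cells with *Sst* were deeper, with a median of 9172 and 4347 UMIs against 7628.5 and 3932. *Slc12a5* showed no common direction, at 295 and 464 CPM with and 373 and 445 CPM without *Sst*. *Pvalb*, *Cck* and *Ndnf* marked 3 and 26, 14 and 40, and 10 and 24 cells. In the 40 *Cck* cells of the 4OH-tamoxifen library 1 *Slc12a2* UMI stood beside 68 of *Slc12a5*, and in the 14 of the untreated library 10 stood beside 39, so the ratio of this subset differed widely between the libraries.

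*Slc12a7* (ENSMUSG00000017756, GRCm38 chr13:73733094-73816754, plus strand), the exporter KCC4 of epithelia and other non-neuronal tissue, was highest in *Cldn5* cells. It stood there at 20.7 CPM (14.3 to 29.1) and 11.9 CPM (7.27 to 18.4), and 10.8% and 4.71% of these cells had a UMI. *C1qa* cells held 5.89 CPM (2.69 to 11.2) and 1.36 CPM (0.164 to 4.90). All gated neurons held 0 and 2 UMIs, and *Mog* cells held 0 in both libraries, which allows up to 0.685 and 0.329 CPM. The lower level in neurons rested on few UMIs, with a ratio to non-neuronal cells of 0.365 and an interval that includes 1 in the 4OH-tamoxifen library.

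Between the libraries, *Slc12a5* differed most in all gated neurons among the 6 members with enough UMIs there. It was 1.66-fold (1.49 to 1.84) higher in the 4OH-tamoxifen library, with 2.17-fold (1.62 to 2.95) in *Slc17a6*, 1.58-fold (1.16 to 2.22) in *Chat*, 1.35-fold (1.16 to 1.59) in *Slc32a1* and 1.09-fold (0.760 to 1.56) in *Nmb* neurons. In the neurons in no class, 68 and 337 cells, it was 2.50-fold (1.88 to 3.40) higher, at 180 and 451 CPM. It was also higher in all 5 non-neuronal classes, 2.33-fold (1.78 to 3.09) over them together, with 4.54-fold in *C1qa* cells, 3.07-fold in *Mog* cells and 1.66-fold (0.649 to 4.56) in *Cldn5* cells, where the interval includes 1. *Slc12a7* ran the other way in non-neuronal cells together, at 0.356-fold (0.213 to 0.583) from 47 and 27 UMIs. Of these, 33 and 20 lay in *Cldn5* cells, which were 260 of 2176 and 403 of 4868 non-neuronal cells and whose own ratio of 0.574-fold (0.312 to 1.03) had an interval that includes 1, and the part of the makeup of the classes was not tested. A rise of the same direction thus stood in cells with few *Slc12a5* UMIs, and whether free RNA has a part in it was not tested.

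*Glrb* was 1.41-fold (1.28 to 1.55) and *Glra1* 1.36-fold (1.10 to 1.71) higher in the neurons of the 4OH-tamoxifen library. The *Glrb* difference was 2.17-fold (1.56 to 3.10) in *Chat* neurons and 0.984-fold (0.855 to 1.13) in *Slc32a1* neurons. *Glra2* at 0.913-fold, *Gphn* at 1.03-fold and *Slc12a2* at 1.04-fold had intervals that include 1. Of 6 members tested, 0 were at least 2-fold higher, against 3.23% of all genes, and 0 were at least 2-fold lower, against 1.98%. The median log2 difference was 0.25 over the 6 members and -0.01 over all genes, of which the middle 90% lay between -0.71 and 0.83. These values compare 2 pools of mice, and no member's difference can be laid to the agent, the batch or the pool.

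Of the other genes of glycine signalling and chloride handling, most of those tested were higher in neurons. Of 12 tested in a list of 16, 7 were at least 2-fold higher in neurons in both libraries, 2 were at least 2-fold lower and 3 were neither, against the 23.1% and 17.6% of all genes. *Glra4*, *Slc12a1*, *Slc12a3* and *Slc12a8* had too few UMIs. The median log2 ratio of the 12 was 1.57 and 1.29. Between the libraries 0 of 12 were at least 2-fold apart, beside 3.23% of all genes higher and 1.98% lower, and their median log2 difference was 0.18 against -0.01 over all genes.

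Among transporters, *Slc6a5* stood at 273 and 384 CPM in *Slc32a1* neurons and at 0 and 2.34 CPM in *Slc17a6* neurons, and it was the 1 gene of 10 tested that was at least 2-fold lower in the latter, beside 2.35% of all genes. *Slc6a9* (GlyT1), the glial glycine transporter, held 586 and 456 CPM in *Aqp4* cells and 31.4 and 40.1 CPM in neurons. The exporter *Slc12a4* (KCC1) stood at 10.5 and 12.2 CPM in neurons and at 51.0 and 46.4 CPM in non-neuronal cells. *Slc12a9* held 21.6 and 23.8 CPM in neurons and 48.0 and 38.1 CPM outside them. Of these exporters, KCC2 was thus higher in neurons and KCC1 in other cells.

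Among synaptic and channel genes, *Nlgn2*, the adhesion protein of inhibitory synapses, stood at 126 and 152 CPM in neurons and 37.9 and 48.3 CPM in other cells. The chloride channel *Clcn2* stood at 30.1 and 31.3 CPM against 10.3 and 11.7 CPM.

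The WNK kinases and their partners SPAK (*Stk39*) and OSR1 (*Oxsr1*) activate the importer and inhibit the exporters by phosphorylation. *Wnk2* stood at 47.1 and 70.8 CPM in neurons and 4.99 and 7.31 CPM in other cells, *Wnk3* at 24.2 and 20.5 CPM against 4.08 and 6.35 CPM, and *Oxsr1* at 32.0 and 32.1 CPM against 10.5 and 14.3 CPM. *Wnk4* was low, at 7.85 and 7.75 CPM in neurons. *Wnk1* held 124 and 123 CPM in neurons and 218 and 208 CPM outside them. *Stk39* was the 1 gene of 12 tested in the list that was at least 2-fold higher in *Mog* cells in both libraries, at 116 and 137 CPM, a share near the 6.89% of all genes.

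**Figure D5:**
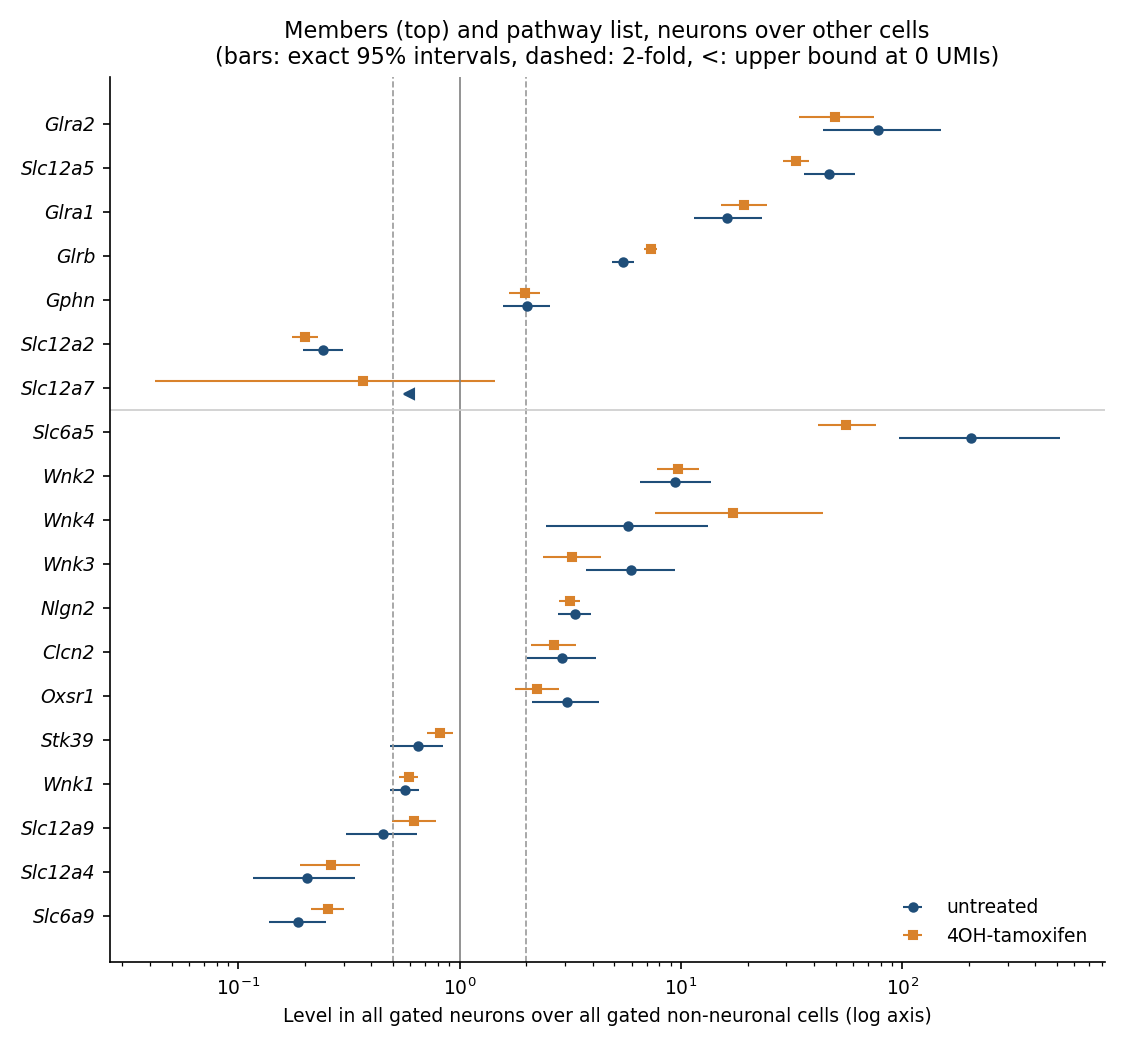
Ratio (log axis) of CPM in all gated neurons over all gated non-neuronal cells for 7 members and 12 other genes of the pathway, 1 point per library with its exact 95% interval. *Glra2* and *Slc12a5* lie farthest to the right among the members, and *Slc12a2*, at 0.243-fold and 0.20-fold, lies left of 1.

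Across the 9 classes in each library (18 points), the genes most like each member were ranked among 6807 genes by Pearson's r of log2(CPM + 10). These are descriptions, since the points share libraries and the classes share depth and free RNA. *Slc12a5* was closest to *Disp2* (r = 0.994), *Elavl2* (0.993), which is one of the gate's neuronal genes, and *Cdk5r2* (0.992). *Slc12a2* was closest to *Opalin* (0.946), a myelin membrane protein gene, then *Pdk3* (0.936) and *Mast3* (0.932). *Glrb* was closest to *Rtn3* (0.983), *Glra1* to *Map3k9* (0.972), *Glra2* to *Gpr22* (0.982) and *Gphn* to *Rev3l* (0.948). The next in rank were *Nap1l3* and *Elovl4* for *Glrb*, *Clmp* and *Pde4a* for *Glra1*, *Spock1* and *Tango2* for *Glra2*, and *Dpysl3* and *Brinp3* for *Gphn*. *Glra3* and *Slc12a7* were below the 50 CPM required and were not ranked.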

How the data were processed

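The data are droplet single-cell RNA libraries (10x v2 chemistry), 1 from untreated and 1 from 4OH-tamoxifen mice. The deposited values are counts of UMIs per gene and barcode, which the authors made with bcl2fastq 2.18.0.12 and Cell Ranger 2.2.0 on mm10 (submitters' processing notes), without normalization. The filters of the study's methods were applied again. Doublets marked by Scrublet at its automatic threshold (6 and 544 barcodes) were removed. Cells kept had at least 800 genes, at most 50 UMIs of hemoglobin genes and at most 20% of UMIs from mitochondrial genes. Of the untreated barcodes few were marked, so an alternative removed doublets at the rate loading would give.

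A marker passed the gate when its UMIs exceeded, at p of 0.05 in a Poisson model, the number that 10% of the cell's UMIs drawn from the library's summed profile would give. Cells passing no gate (936 and 2864) were left out of the classes. UMIs were summed per class and library and scaled to 1000000 UMIs (CPM). The 95% intervals are exact Poisson for CPM, Clopper-Pearson for shares and exact conditional for ratios. Shares were also computed after thinning to 2000 UMIs per cell. No comparison was tested, since there was 1 library per condition. A gene was called when it was at least 2-fold apart, with at least 20 UMIs in the classes compared. The intervals and gates were also run on counts drawn from the same models, with the same 10% free RNA. Such a run cannot show how they hold where those assumptions fail.

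The genes named are the members, a 16-gene pathway list with values for those at 20 CPM or more in a neuron class (*Wnk4* is named as one of those called), marker genes, and the 3 genes most like each member. Neuron classes were divided by 1 UMI or more of the genes named. Members, lists and divisions were chosen with earlier results of these data known. Other settings of the filters, gates, doublet removal and scaling numbered 14. Some genes, and a setting that used one of them, are not reported here. Of the 8 members, 6 matched the table of RefSeq windows used here, and windows of *Glra1* and *Slc12a2* were not used here. Gene positions are from GENCODE on GRCm38. Tools were Python 3.11.15, numpy 2.4.6, scipy 1.17.1, pandas 2.3.3, scanpy 1.11.5 and leidenalg 0.10.2.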

Additional observations from a re-analysis of the deposited data

Results flagged for a closer look

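Each member was compared between *Slc17a6*, *Nmb* or *Chat* neurons and *Slc32a1* neurons. In 4 comparisons with at least 20 UMIs in each library, the 2 libraries lay on opposite sides of 0 on the log2 scale and at least 1 library's interval excluded 0. *Slc17a6* over *Slc32a1* neurons gave -0.25 (untreated) and 0.29 (4OH-tamoxifen) for *Glrb*. The same contrast gave -0.46 and 0.22 for *Slc12a5*. *Nmb* over *Slc32a1* neurons gave -1.16 and 0.066 for *Glra2*, from 8 and 14 *Nmb* neuron UMIs. *Chat* over *Slc32a1* neurons gave -0.35 and 0.79 for *Glrb*. With 1 library per condition, the difference between the libraries was not tested in any of these.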

How the results depend on the processing

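No paired analysis was possible because the labels give 1 library per group. Over 16 results and up to 14 alternatives each, 208 values were computed, of which 176 stayed within the interval or limit of the value reported and 32 moved beyond it. The log2 ratio of *Slc12a5* to *Slc12a2* in all neurons (2.76) was 2.57 with at most 10% mitochondrial UMIs, 2.94 with 20% free RNA in the gate, 2.04 with 1 of 4 neuronal genes and 2.46 as a mean of each cell's own CPM. In *Slc17a6* neurons (3.34) it was 2.57 with Leiden classes, and in *Chat* neurons (2.88) it ranged from 2.64 to 3.29. It stayed between 1.54 and 2.37 in *Nmb* and between 2.81 and 3.20 in *Slc32a1* neurons. The log2 ratio of *Glra1* to *Glra2* in all neurons over both libraries (0.04) had an interval that includes 0 (-0.15 to 0.24), and the libraries lay on opposite sides of it, at -0.37 (untreated) and 0.20 (4OH-tamoxifen). It was -0.032 with 3 of 4 neuronal genes, 0.00 with Leiden classes, 0.24 with at most 10% mitochondrial UMIs, 0.28 after thinning and 0.24 as a mean of each cell's own CPM, so it had no settled direction. The members at least 2-fold apart between the libraries (0) became 1 when every cell's own CPM was averaged and 1 with no minimum UMI count, and those higher in neurons (4) ranged from 4 to 5. The cause of these changes was not tested. The 96 *Nmb* and 97 *Slc17a6* neurons limit the precision of their classes, and pools without replicates leave the spread between mice unknown.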

Other observations

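Cells in no gate, 936 and 2864 of those kept, were not part of the comparisons. They held 151 and 151 CPM of *Glrb*, 173 and 203 CPM of *Slc12a2* and 29.1 and 57.4 CPM of *Slc12a5*, between the neuronal and non-neuronal classes for *Glrb* and *Slc12a5*. The ratio of *Slc12a5* to *Slc12a2* was 0.168 (0.138 to 0.202) in the untreated and 0.282 (0.254 to 0.312) in the 4OH-tamoxifen library. The neurons in no class, 68 and 337 cells, held 63.6 and 73.0 CPM of *Glra1* and 67.1 and 69.7 CPM of *Glra2*. They held 177 and 488 CPM of *Glrb*, so that *Glrb* differed most between the libraries in this set. The ratio of *Slc12a5* to *Slc12a2* in these neurons was 2.43 (1.44 to 4.25) and 5.90 (4.72 to 7.45).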
